A study of Mus musculus with 11 samples.

Results

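The subunits of the neurofilament, encoded by Nefl, Nefm, Nefh and Ina, were followed in mRNA bound to tagged ribosomes of excitatory neurons during the first weeks after birth in the mouse forebrain. The 4 genes were taken by symbol, and each matched 1 of the 77179 gene IDs of the deposited table: Nefl is ENSMUSG00000022055, Nefm is ENSMUSG00000022054, Nefh is ENSMUSG00000020396 and Ina is ENSMUSG00000034336. All 4 reached 1 TPM in at least 2 libraries and so were among the 19008 genes tested. TPM, a measure of transcript abundance, divides by transcript length and by the total of the library, so levels of different genes can be set side by side.

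The pull-down (IP) groups were mRNA from beads carrying anti-GFP antibodies, taken from NEX-Cre;Rpl10aeGFP/eGFP mice. The ages were postnatal day 7 (P7), day 14 (P14) and day 21 (P21), and each had 3 libraries, described as biological replicates in the labels. Cre driven from the NEX (Neurod6) locus turns on a GFP-tagged Rpl10a ribosomal protein in excitatory neurons, and the mice were kept on a C57BL/6J background. The input group was whole-tissue RNA at P7, with 1 library of the genotype NEX-Cre;Rpl10aeGFP/eGFP (replicate 1) and 1 of the genotype Rpl10aeGFP/eGFP, which has no Cre (replicate 2). Both kinds of library were polyadenylated RNA of cortex and hippocampus processed together, and no input of a later age was analysed here.

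Neurofilaments are the intermediate filaments of neurons, which fill axons and help to set their calibre and with it the speed of conduction. Nefl encodes the light chain that forms the filament core, and Nefm and Nefh encode the medium and heavy chains, whose long tails are phosphorylated in axons and reach out from the filament. Ina encodes alpha-internexin, a subunit of filaments in the central nervous system that appears earlier in development than the other subunits.

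The labelled cell type was checked against marker genes. Of 6 excitatory neuron markers, 2 were higher in P7 IP than in P7 input (Neurod2 and Neurod6), 1 was lower (Camk2a, at 183 ± 32.9 TPM in P7 IP and 288 ± 35.6 TPM in P7 input) and 3 did not pass, among them Slc17a7, the vesicular glutamate transporter, at 628 ± 106 TPM in P7 IP and 537 ± 32.4 TPM in P7 input (SD, n = 3 and 2). Rpl10a, the tagged protein's gene, averaged 3638 ± 240 TPM in P7 IP and 742 ± 360 TPM in P7 input. The Cre-positive input had 996 TPM and the Cre-negative input 487 TPM. All 12 inhibitory neuron markers, all 10 astrocyte markers, all 10 microglia markers, all 5 endothelial markers and 9 of 10 oligodendrocyte markers were lower in P7 IP than in P7 input. Of all tested genes, 51.1% were called lower and 18.6% higher in this comparison. Markers of other cells remained detectable in IP, and their summed levels are given beside the results they move with. The depth of the libraries is unknown, so the precision of a value is given by the spread between replicates.

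At P7, Ina had the highest level of the 4 genes in IP, and by P14 Nefl did. In P7 IP, Ina averaged 149 ± 8.89 TPM, Nefl 94.2 ± 10.8 TPM, Nefm 46.8 ± 2.96 TPM and Nefh 5.33 ± 0.817 TPM (SD, n = 3). In P14 IP, Nefl averaged 173 ± 5.61 TPM, Ina 133 ± 3.93 TPM, Nefm 96.3 ± 6.76 TPM and Nefh 13.1 ± 0.625 TPM (SD, n = 3). In P21 IP, Nefl averaged 181 ± 14.3 TPM, Ina 136 ± 5.91 TPM, Nefm 117 ± 4.67 TPM and Nefh 13.9 ± 1.48 TPM (SD, n = 3). Neighbours in each of these orders had libraries that did not overlap, and the heavy chain gene stood last throughout. In P7 input, Nefl averaged 151 ± 38.8 TPM, Ina 132 ± 2.73 TPM, Nefm 91.4 ± 28.4 TPM and Nefh 12.0 ± 3.20 TPM (SD, n = 2), and there the libraries of Nefl and Ina overlapped. Set among the tested genes of P7 IP, the mean of Ina was higher than that of 93.7% of genes, that of Nefl than 90.0%, that of Nefm than 82.3% and that of Nefh than 46.5%. By P21 these standings were 93.0% for Ina, 94.8% for Nefl, 91.9% for Nefm and 63.7% for Nefh.

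**Figure D1:**
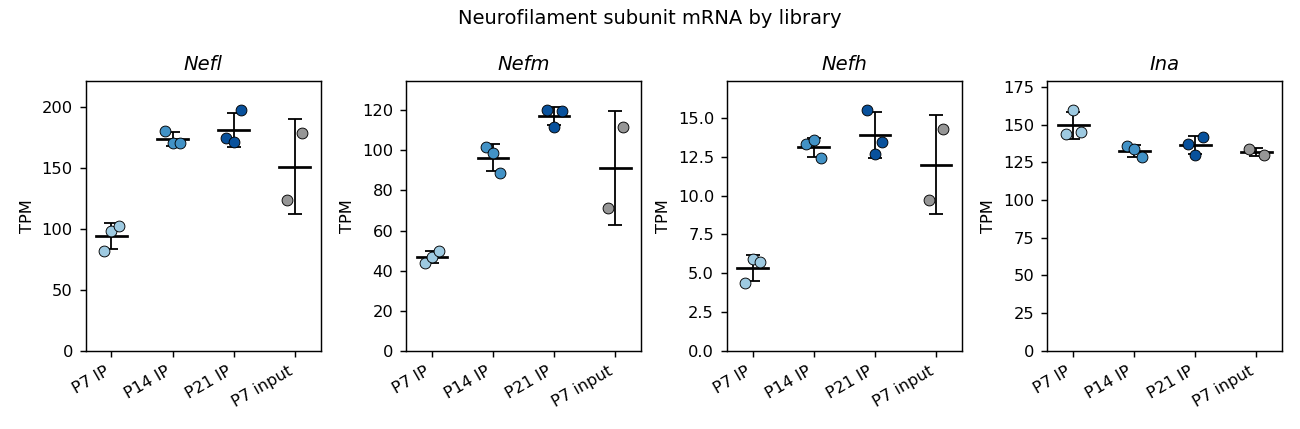
TPM of each gene (y axis, from 0, own scale per gene) in every library of P7 IP, P14 IP, P21 IP and P7 input; points are libraries, lines are group means and bars are SD. Nefl, Nefm and Nefh are lowest in all 3 P7 IP libraries, while Ina is highest there, between 144 and 160 TPM.

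The first question was how the subunits changed with age in the pull-down. Between P7 and P14, the mRNA of the light, medium and heavy chains rose and that of Ina fell. Between P14 and P21, none of the 4 genes passed the test. Over the whole interval Nefl, Nefm and Nefh were higher at P21 than at P7, while the difference for Ina just missed the threshold.

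Nefl, the core subunit, had 82.0, 98.3 and 102 TPM in P7 IP, 180, 170 and 170 TPM in P14 IP, and 174, 171 and 197 TPM in P21 IP. The P14 and P21 libraries overlapped each other and all lay above the 3 libraries of P7. On the log2(TPM + 1) scale, Nefl rose by 0.88 ± 0.13 (SE) between P7 and P14 (adjusted p = 0.000196, limma). Its P21 minus P14 difference was 0.06 ± 0.13 (adjusted p = 0.766), with a 95% confidence interval of -0.22 to 0.34.

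Nefm, the medium chain, had 43.7, 47.0 and 49.6 TPM in P7 IP, 102, 98.5 and 88.7 TPM in P14 IP, and 120, 112 and 120 TPM in P21 IP. The 3 ages did not overlap, and their order was that of age. Nefm rose by 1.03 ± 0.13 on the log2 scale between P7 and P14 (adjusted p = 9.18e-05, limma). Its P21 minus P14 difference of 0.28 ± 0.13 did not pass (adjusted p = 0.139), with a 95% confidence interval of -0.01 to 0.57. That call turned on the input libraries, which enter the shared estimate of the spread: without input replicate 1 the adjusted p was 0.0136, without input replicate 2 it was 0.0137, and in a fit of the P14 and P21 libraries alone it was 0.0203, within a range of 0.0136 to 0.331 over the 21 alternatives tried.

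Nefh, the heavy chain, had 4.39, 5.89 and 5.70 TPM in P7 IP, 13.3, 13.6 and 12.4 TPM in P14 IP, and 15.5, 12.6 and 13.5 TPM in P21 IP. As for Nefl, the P7 libraries were the lowest and the later ages overlapped. Nefh rose by 1.16 ± 0.14 on the log2 scale between P7 and P14 (adjusted p = 5.35e-05, limma), and its P21 minus P14 difference was 0.07 ± 0.14 (adjusted p = 0.738), with a 95% confidence interval of -0.23 to 0.38.

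Ina had 144, 160 and 145 TPM in P7 IP, 136, 134 and 128 TPM in P14 IP, and 137, 130 and 142 TPM in P21 IP. All 3 P7 libraries lay above those of the later ages, which overlapped, and the highest P21 library was 142 TPM against 144 TPM for the lowest P7 library. Ina fell by 0.17 on the log2 scale between P7 and P14, with an SE of 0.05 (adjusted p = 0.0217, limma), and its P21 minus P14 difference was 0.04 ± 0.05 (adjusted p = 0.622), with a 95% confidence interval of -0.08 to 0.16. Without P7 IP replicate 2 the fall at P14 was -0.12 (adjusted p = 0.0854) and without P14 IP replicate 3 it was -0.15 (adjusted p = 0.0774), within a range of 0.00201 to 0.0854 over the alternatives.

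Between P7 and P14, 3 of the 4 genes were called higher and 1 lower, beside 26.7% of all tested genes called higher and 22.8% called lower. Between P14 and P21 none was called, beside 8.53% of all tested genes called higher and 19.7% lower. With P21 set against P7, the log2 change was 0.94 ± 0.13 for Nefl (adjusted p = 7.62e-05), 1.31 ± 0.13 for Nefm (8.82e-06), 1.24 ± 0.14 for Nefh (1.96e-05) and -0.13 ± 0.05 for Ina (0.0557), all by limma. Those 3 calls upward compare with 27.3% of all tested genes called higher and 32.6% called lower. The comparisons between ages share libraries, so each rests in part on the values of another. In a test of any change over the 3 ages, all 4 genes passed, at adjusted p = 0.000112 for Nefl, 2.10e-05 for Nefm, 2.87e-05 for Nefh and 0.0378 for Ina, beside 62.6% of all tested genes. The call for Ina was lost in 7 of 21 alternatives, 4 of which left out P7 IP replicate 2, P14 IP replicate 2, P14 IP replicate 3 or P21 IP replicate 1, with adjusted p between 0.00415 and 0.161 over all 21.

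**Figure D2:**
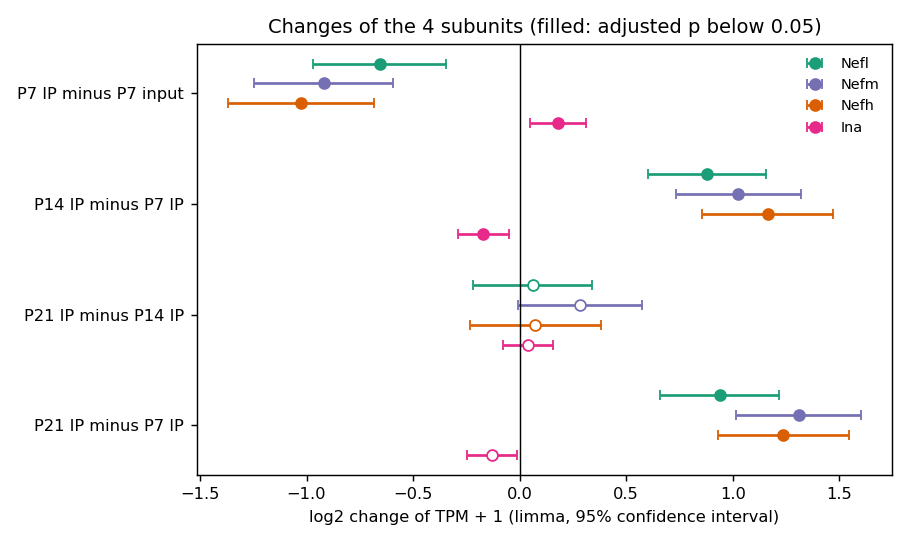
Log2 change of TPM + 1 (x axis) for the 4 genes in 4 comparisons (y axis), with 95% confidence intervals from limma; filled points passed at adjusted p below 0.05. Nefl, Nefm and Nefh lie left of 0 in P7 IP minus P7 input and right of 0 in P14 IP minus P7 IP, and Ina lies on the other side in both.

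The weekly steps, the first from P7 to P14 and the second from P14 to P21, were unequal for the 3 chains. The second step minus the first was -0.82 ± 0.22 on the log2 scale for Nefl (adjusted p = 0.0207), -0.74 ± 0.23 for Nefm (0.0382) and -1.09 ± 0.24 for Nefh (0.00875), by a limma contrast. For Ina it was 0.21 ± 0.09 (adjusted p = 0.128). Thus 3 genes had a smaller second step, beside 16.8% of all tested genes with a lower and 7.46% with a higher second step. Nefh passed in all 21 alternatives, Nefl in 15 and Nefm in 8. Under median-of-ratios scaling the difference was -0.65 for Nefl (adjusted p = 0.0506), within a range of 0.00547 to 0.0777 over its alternatives, and -0.57 for Nefm (adjusted p = 0.109), within 0.00270 to 0.131. The call for Nefl was also lost without P14 IP replicate 1, 2 or 3, and that for Nefm without any 1 of 8 of the 9 IP libraries, all but P7 IP replicate 3.

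Markers of several other cell types also moved with age in IP. The summed level of the 10 oligodendrocyte markers was 32.9 to 36.9 TPM in P7 IP, 308 to 417 TPM in P14 IP and 528 to 761 TPM in P21 IP, and 10 of 10 were higher at P21 than at P7. The 10 astrocyte markers summed to 153 to 213 TPM in P7 IP, 360 to 428 TPM in P14 IP and 488 to 639 TPM in P21 IP, with 9 of 10 higher at P21 than at P7. The 10 microglia markers summed to 28.3 to 33.8 TPM in P7 IP, 44.6 to 54.4 TPM in P14 IP and 47.6 to 60.1 TPM in P21 IP, with 9 of 10 higher and 1 lower at P21 than at P7, and 3 of 4 oligodendrocyte precursor markers were higher. Of all tested genes, 27.3% were called higher and 32.6% lower at P21 than at P7. The part of these 4 cell types in the result was not tested. The 5 endothelial markers stayed level, at a sum of 12.4 to 16.3 TPM in P7 IP. Their sum was 12.9 to 15.1 TPM in P14 IP and 10.8 to 17.3 TPM in P21 IP. Of these 5, 1 was higher at P21 than at P7 and 4 did not pass. For inhibitory neurons, which also carry neurofilaments, the 12 markers summed to 99.6 to 112 TPM in P7 IP, 97.0 to 107 TPM in P14 IP and 111 to 138 TPM in P21 IP. At P14, 5 of these 12 were higher than at P7 (Gad1, Gad2, Pvalb, Syt2 and Vip), 2 were lower (Lhx6 and Npy) and 5 did not pass. Over all tested genes, 26.7% were called higher and 22.8% lower at P14 than at P7. Gad1, which makes GABA, averaged 6.27 ± 1.68 TPM in P7 IP, 8.91 ± 0.584 TPM in P14 IP and 10.7 ± 1.86 TPM in P21 IP (SD, n = 3). Pvalb, the marker of fast-spiking interneurons, had 0.0781 to 0.139 TPM in P7 IP, 2.90 to 3.79 TPM in P14 IP and 12.2 to 14.7 TPM in P21 IP. The 6 markers of subcerebral layer 5 neurons, projection neurons with long axons, summed to 445 to 469 TPM in P7 IP. Their sum was 366 to 405 TPM in P14 IP and 258 to 277 TPM in P21 IP. Crym, the largest part of that sum, averaged 265 TPM in P7 IP. At P14, 1 of the 6 was higher than at P7, 3 were lower and 2 did not pass. At P21, 5 were lower than at P7 and 1 did not pass. The 5 markers of upper layer neurons summed to 139 to 152 TPM in P7 IP. Their sum was 312 to 413 TPM in P14 IP and 479 to 504 TPM in P21 IP. At P21, 2 of the 5 were higher than at P7, 2 were lower and 1 did not pass. Lamp5 alone averaged 16.0 TPM in P7 IP and 388 TPM in P21 IP. The part of inhibitory, layer 5 and upper layer neurons in the result was not tested either. In bulk libraries such as these, a change in the number of cells of a type and a change in RNA per cell cannot be told apart.

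The subunits also changed in proportion. The summed TPM of the 4 genes was 274, 311 and 303 in P7 IP, 431, 416 and 399 in P14 IP, 447, 426 and 472 in P21 IP, and 338 and 434 in P7 input. Ina made up 52.5%, 51.4% and 47.9% of that sum in P7 IP, 31.6%, 32.1% and 32.1% in P14 IP and 30.7%, 30.6% and 30.0% in P21 IP. The share of Ina was thus higher in every P7 IP library than in any later one. Nefl made up 30.0%, 31.6% and 33.8% in P7 IP, 41.7%, 40.9% and 42.6% in P14 IP and 39.0%, 40.2% and 41.8% in P21 IP. Nefm made up 16.0%, 15.1% and 16.4% in P7 IP, 23.6%, 23.7% and 22.2% in P14 IP and 26.9%, 26.3% and 25.3% in P21 IP. The share of Nefm was thus lowest at P7 and highest at P21 with no overlap between ages, whereas the share of Nefl at P14 and P21 overlapped. Nefh made up 1.60%, 1.90% and 1.88% in P7 IP and between 2.85% and 3.47% in the 6 later libraries.

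**Figure D3:**
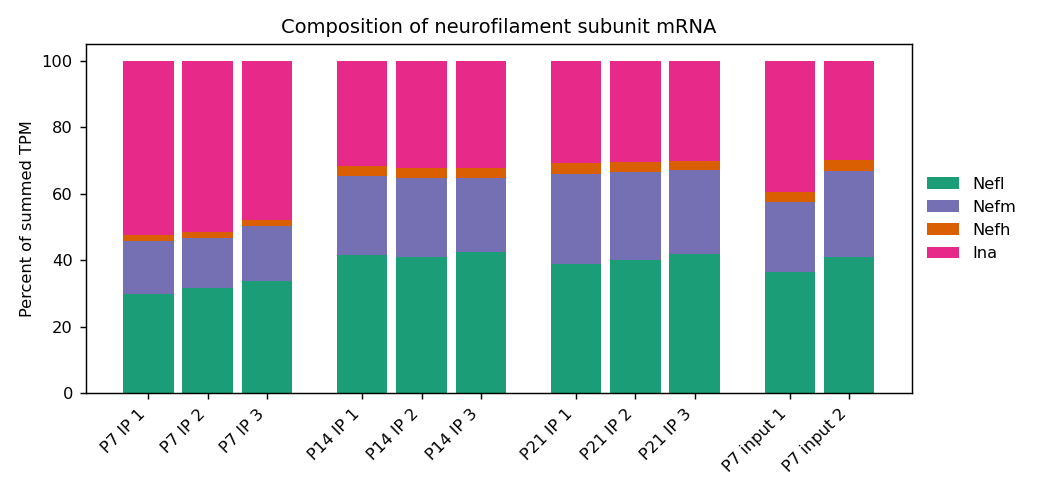
Percent of the summed TPM of the 4 genes (y axis) taken by each gene in every library (x axis), grouped as P7 IP, P14 IP, P21 IP and P7 input. The Ina segment spans 47.9% to 52.5% in P7 IP and 30.0% to 32.1% in the P14 and P21 libraries.

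Ratios between subunits, which do not depend on how a library is scaled, were compared over the 3 ages by an exact permutation test over the 1680 assignments of the 9 IP libraries, with adjustment over the 6 ratios. The test asks whether the log2 ratio differs between ages and has no direction, so directions are read from the means. The smallest p this design allows is 0.00357. The ratio of Nefm to Nefl averaged 0.499 ± 0.0298 in P7 IP, 0.555 ± 0.0300 in P14 IP and 0.649 ± 0.0421 in P21 IP (SD, n = 3; exact permutation p = 0.00714, adjusted 0.0214). The medium chain therefore gained on the light chain by P21, where all libraries lay above the earlier ones. The libraries of P7 and P14 overlapped, with 0.533 in P7 IP replicate 1 and 0.521 in P14 IP replicate 3. The ratio of Ina to Nefm averaged 3.20 ± 0.246 in P7 IP, 1.38 ± 0.0583 in P14 IP and 1.16 ± 0.0224 in P21 IP (exact permutation p = 0.00357, the smallest possible, adjusted 0.0214). The ratio of Ina to Nefl averaged 1.60 ± 0.168 in P7 IP, 0.765 ± 0.0173 in P14 IP and 0.755 ± 0.0346 in P21 IP (exact permutation p = 0.0321, adjusted 0.0386). Both ratios of Ina dropped mostly between P7 and P14, and for Nefl the later ages overlapped.

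The heavy chain gained on the light chain and on Ina. The ratio of Nefh to Nefl averaged 0.0564 ± 0.00325 in P7 IP, 0.0756 ± 0.00374 in P14 IP and 0.0770 ± 0.0108 in P21 IP (exact permutation p = 0.0321, adjusted 0.0386). The ratio of Nefh to Ina averaged 0.0356 ± 0.00450 in P7 IP, 0.0988 ± 0.00265 in P14 IP and 0.102 ± 0.00990 in P21 IP (exact permutation p = 0.0321, adjusted 0.0386). Nefh to Nefm did not pass (exact permutation p = 0.10), at 0.114 ± 0.0125 in P7 IP, 0.136 ± 0.00462 in P14 IP and 0.118 ± 0.00939 in P21 IP, and its P21 minus P7 difference in log2 ratio had a sign that changed with the library left out. The adjusted p for Nefh to Nefl was 0.0686 without P7 IP replicate 1, 0.0514 without P7 IP replicate 3 and 0.0514 without P14 IP replicate 1.

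**Figure D4:**
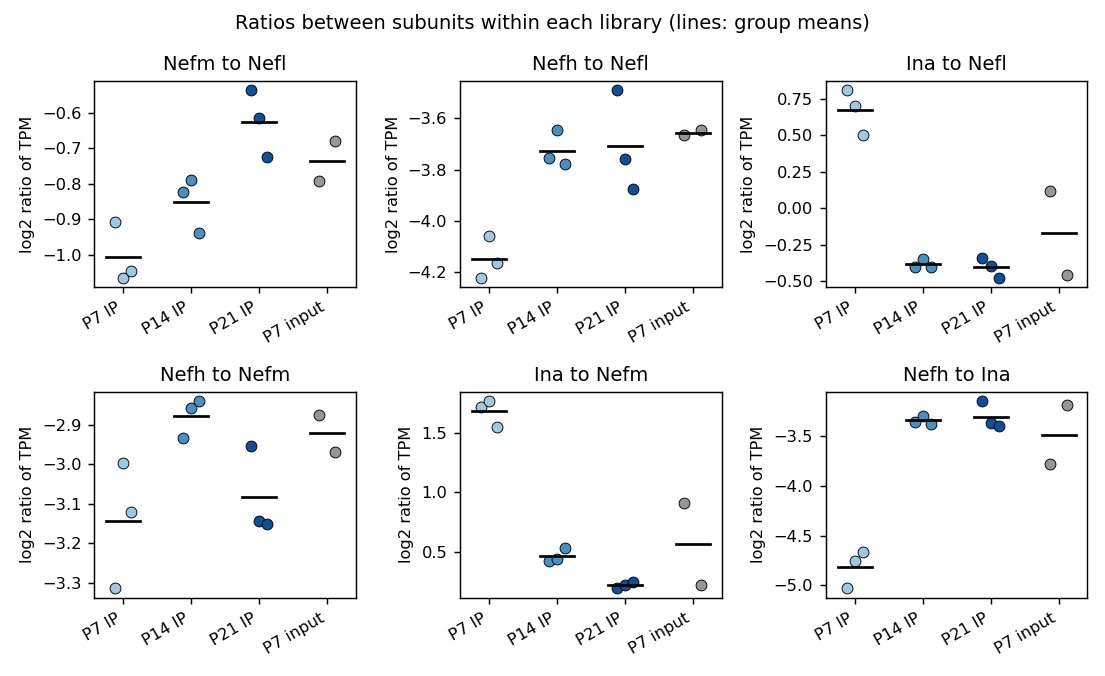
Log2 ratio of TPM between 2 subunits within each library (y axis, own scale per pair) for P7 IP, P14 IP, P21 IP and P7 input; points are libraries and lines are group means. Ina to Nefm is highest at P7 and lowest at P21 with no overlap between the IP ages, and Nefm to Nefl has its highest mean ratio, 0.649, at P21.

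The pull-down at P7 was next set against whole tissue of the same age. Nefl, Nefm and Nefh were lower in P7 IP than in P7 input and Ina was higher. Nefl had 82.0, 98.3 and 102 TPM in P7 IP, against 124 and 178 TPM in P7 input, and Nefm had 43.7, 47.0 and 49.6 TPM in P7 IP, against 71.3 and 111 TPM in P7 input. Nefh had 4.39, 5.89 and 5.70 TPM in P7 IP, against 9.73 and 14.3 TPM in P7 input, and Ina had 144, 160 and 145 TPM in P7 IP, against 134 and 130 TPM in P7 input. For the 3 chains the Cre-negative input was the higher of the pair. The log2 change was -0.66 ± 0.14 for Nefl (adjusted p = 0.00168), -0.92 ± 0.15 for Nefm (0.000236), -1.02 ± 0.15 for Nefh (0.000155) and 0.18 ± 0.06 for Ina (0.0203), by limma. These are 3 lower calls and 1 higher call, beside 51.1% of all tested genes called lower and 18.6% called higher, with a median change over all tested genes of -0.33.

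This comparison depended on the scaling and on the input pair. Median-of-ratios scaling, which moved the median of all genes to 0.06, gave -0.17 for Nefl (adjusted p = 0.296), -0.43 for Nefm (0.0272), -0.58 for Nefh (0.00747) and 0.67 for Ina (3.19e-06), and over its 21 alternatives the adjusted p of Nefl ranged from 0.000194 to 0.296. Quantile normalisation, which moved that median to 0.03, gave -0.86 for Nefl (0.00101), -0.94 for Nefm (0.000877), -0.49 for Nefh (0.0198) and 0.03 for Ina (0.589). With the Cre-positive input alone, that is without input replicate 2, the changes were -0.39 for Nefl, -0.60 for Nefm and -0.77 for Nefh, and that for Ina was 0.16 (adjusted p = 0.105). Ina also missed the threshold without P7 IP replicate 2 (adjusted p = 0.0690), and its range was 3.19e-06 to 0.589.

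Input held far more RNA of other cells, including neurons that the tag leaves out. The inhibitory neuron markers summed to 99.6 to 112 TPM in P7 IP and 1035 to 1176 TPM in P7 input, the astrocyte markers to 153 to 213 TPM in P7 IP and 3177 to 3509 TPM in P7 input, and the oligodendrocyte markers to 32.9 to 36.9 TPM in P7 IP and 201 to 271 TPM in P7 input. Their part in the lower level of the chains in IP was not tested.

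Among the other cytoplasmic intermediate filament genes, 5 of 6 were tested, and Des, desmin of muscle, stayed at or below 1.02 TPM. With P21 set against P7 in IP, 1 rose, 2 fell and 2 did not pass, beside 27.3% of all tested genes called higher and 32.6% called lower. Prph, the peripherin of peripheral and some central neurons, had 11.3, 12.6 and 13.4 TPM in P7 IP, 10.3, 11.4 and 10.2 TPM in P14 IP, and 5.60, 5.85 and 5.31 TPM in P21 IP. The P21 libraries all lay below the earlier ones, and Prph was lower at P21 than at P7 by a log2 change of -1.03 ± 0.13 (adjusted p = 4.30e-05, limma). Its P21 minus P14 change was -0.82 ± 0.13 (adjusted p = 0.00115), and its P14 minus P7 change was -0.21 ± 0.13 without passing (adjusted p = 0.199). Synm, synemin, fell by 0.74 on the log2 scale (adjusted p = 5.07e-06), and Gfap, the astrocyte filament, was higher by 0.78 (adjusted p = 0.00293) beside the astrocyte markers given above. The P21 minus P7 change of Vim was -0.02 (adjusted p = 0.955) and that of Nes was -0.14 (adjusted p = 0.298). In P7 IP against P7 input, Prph was higher by 0.73 ± 0.14 (adjusted p = 0.000937), and Gfap, Nes, Synm and Vim were lower. Beside these calls, 18.6% of all tested genes were called higher and 51.1% lower in this comparison, with a median change of -0.33. Synm averaged 11.5 TPM in P7 IP and 14.1 TPM in P7 input, a smaller difference than that of Gfap, at 8.40 and 130 TPM.

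Of 9 genes for the motors that carry neurofilaments along axons, 5 were higher at P21 than at P7, 1 was lower and 3 did not pass, beside the same 27.3% higher and 32.6% lower over all tested genes. The median log2 change of the 9 was 0.31, and that of all tested genes was -0.04. Kif5a, a kinesin heavy chain of neurons, had 91.0, 127 and 126 TPM in P7 IP, 578, 429 and 390 TPM in P14 IP, and 935, 1009 and 1077 TPM in P21 IP. The ages did not overlap. Kif5a rose by 2.01 ± 0.16 on the log2 scale between P7 and P14 (adjusted p = 3.39e-06, limma) and by 1.13 ± 0.16 between P14 and P21 (0.000668). Its relative Kif5b was higher at P21 than at P7 by 0.74 (adjusted p = 6.64e-05). Dync1i1, a dynein intermediate chain, was lower by a change of -0.51 (adjusted p = 0.000367), and Dync1h1, the dynein heavy chain, changed by -0.18 without passing (adjusted p = 0.152).

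Genes that tie filaments to other parts of the cytoskeleton went both ways, with Plec, plectin, higher at P21 than at P7 by 0.93 (adjusted p = 6.02e-05), Dst, dystonin, lower at -0.46 (0.00191) and Macf1 at 0.12 without passing (0.526). Of 14 genes for kinases and a phosphatase that act on neurofilament tails, or for their regulators, 5 were higher, 5 lower and 4 did not pass, a split close to the 27.3% higher and 32.6% lower of all tested genes. Mapk10, which encodes the kinase JNK3, was higher by 0.95 (adjusted p = 7.36e-07). Mapk8, which encodes JNK1, was lower at -1.01 (adjusted p = 2.04e-06) and Mapk3, which encodes ERK1, at -0.75 (2.48e-06). Mapk10 and Mapk8, both of the JNK family, thus moved in opposite directions.

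Of 6 genes for turnover and chaperones, 1 was higher at P21 than at P7, 2 were lower and 3 did not pass, beside 27.3% higher and 32.6% lower over all tested genes. Capn2, a calpain protease, had 29.9, 28.4 and 26.4 TPM in P7 IP, 14.7, 14.6 and 14.8 TPM in P14 IP, and 9.73, 10.2 and 11.6 TPM in P21 IP, with no overlap and a P21 minus P7 change of -1.35 (adjusted p = 8.25e-08, limma). Among small heat shock proteins, Hspb8 was higher by 0.51 (adjusted p = 0.0122) and Hspb1 was at 0.09 without passing (0.529), and both lay below 2 TPM in IP. Cryab, a small heat shock protein gene of the same list, was far more abundant and did not pass either. It had 270 to 351 TPM in P7 IP and 261 to 306 TPM in P21 IP. Of 3 genes for proteins that bind Nefl mRNA, 2 were lower and 1 did not pass, beside 32.6% of all tested genes called lower, with Arhgef28 at -0.77 (adjusted p = 0.000398) and Hnrnpk at -0.38 (8.72e-05).

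**Figure D5:**
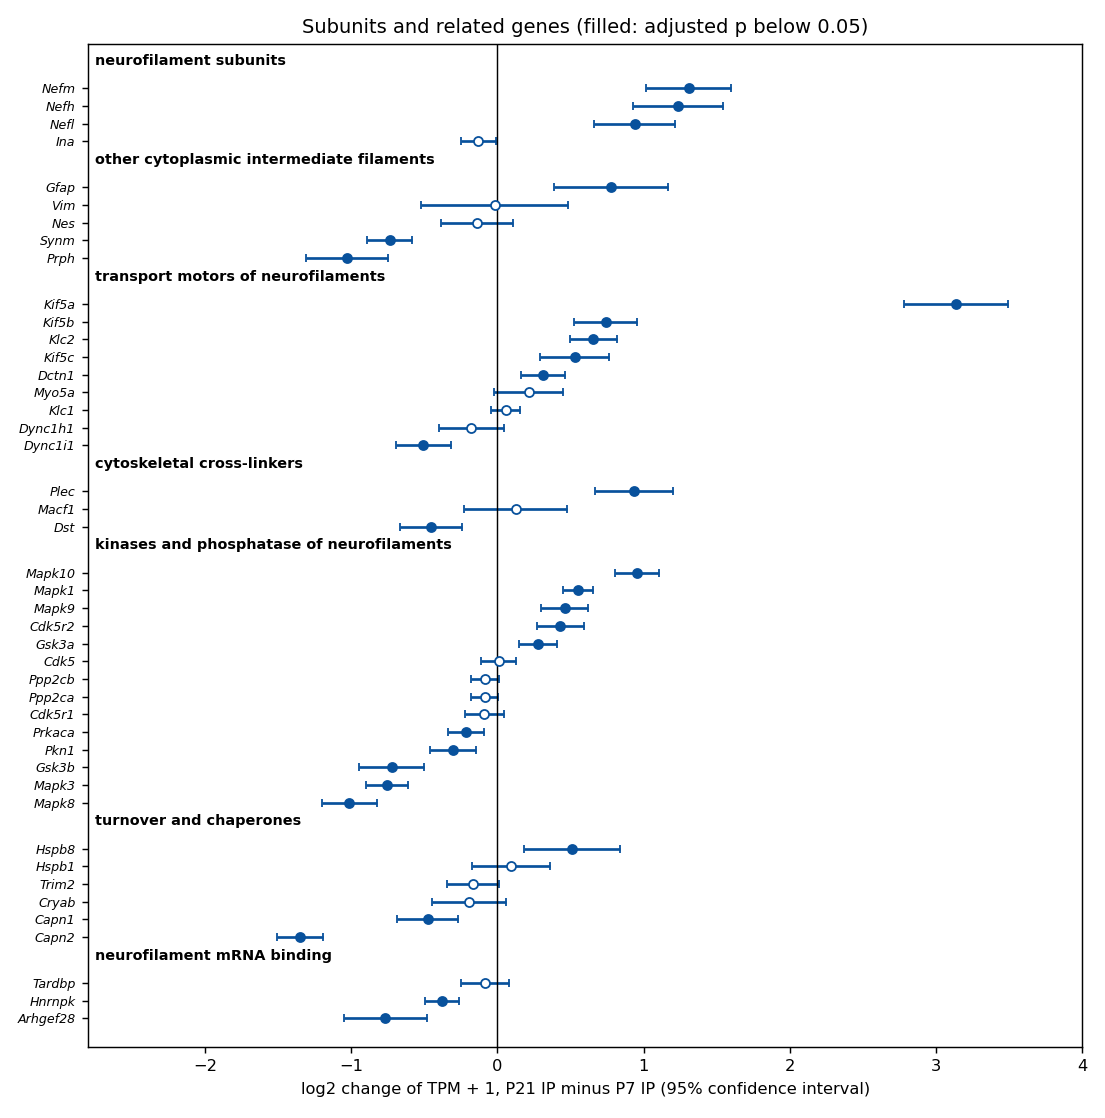
Log2 change of TPM + 1 in P21 IP minus P7 IP (x axis) with 95% confidence intervals for the 4 subunits and the tested genes of 6 related lists (y axis); filled points passed at adjusted p below 0.05 in limma. Among the genes plotted, Kif5a lies farthest to the right, at 3.14, and Capn2 farthest to the left, at -1.35.

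Over the 11 libraries, the log2 levels of the chains ran together, with Pearson correlations of 0.98 between Nefl and Nefm, 0.97 between Nefl and Nefh and 0.98 between Nefm and Nefh. Ina ran opposite, at -0.65 with Nefl, -0.68 with Nefm and -0.70 with Nefh. These values describe 11 points that share their age and fraction, and any genes with the same difference between groups correlate. Among 7875 genes with a mean of at least 10 TPM, those close to Nefl included Cadps2, Rasgrf1, Spry2 and Nefm (0.98 for each), the closest to Nefm were Mras, Cplx2, Ap3m2, Spry2 and Nefh (0.98 for each), and the closest to Nefh were Hspa2, Spry2, Mbnl1, Faah and Nefm (0.98 to 0.99). Hspa2, for example, averaged 3.56 TPM in P7 IP, 12.4 TPM in P14 IP, 13.9 TPM in P21 IP and 11.7 TPM in P7 input, close to the levels of Nefh itself. The closest to Ina were Zdhhc18, Kcns1, Tesk1, Arpc4 and Hira (0.84 to 0.86).

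In the RefSeq annotation of GRCm38.p6, an older build than that of the deposited values, Nefl and Nefm are next to each other among protein-coding genes on chromosome 14, between Dock5 and Adam7. Nefh lies on chromosome 11 and Ina on chromosome 19, and the rise between P7 and P14 was thus shared by chain genes on 2 chromosomes. The span of Nefh overlaps that of Ap1b1 and the span of Ina that of Nt5c2, and with no statement on strand in the sources used here, reads of such overlaps may not be told apart. The span of Nefm also overlaps that of A230070E04Rik, and that of Nefh also overlaps Gm35321. No values were found under these symbols. Ap1b1 had 47.8 to 49.9 TPM in P7 IP and 52.3 to 61.2 TPM in P14 IP, and Nt5c2 had 38.7 to 41.0 TPM in P7 IP and 28.5 to 31.1 TPM in P14 IP, the same directions as Nefh and Ina.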

How the data were processed

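Polyadenylated RNA from GFP pull-downs (9 libraries) and from whole-tissue lysate (2 libraries) was sequenced, per the labels. TPM values for all 11 libraries were deposited by the authors in a single table. The submitters' processing notes name Salmon 1.10.0, fastp 1.0.1, DESeq2 1.46.0 and the build mm39. The role of each tool, the annotation, the summing of transcripts to genes and the use of strand were not stated in the sources used here. TPM is relative to the library total, so abundant genes that change shift all others, and it keeps no depth.

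Gene symbols were found for 50886 IDs. The filter kept genes reaching 1 TPM in 2 or more libraries. Values were taken as log2(TPM + 1), and limma 3.58.1 (R 4.3.3) fitted a mean for each group over the 11 libraries together, with 7 residual degrees of freedom, a trend in the moderation, and p-values adjusted by Benjamini-Hochberg over all 19008 genes. Calls are at adjusted p below 0.05. Ratios were tested by exact permutation, while summed levels and shares are described without a test. The code was tested on simulated data. Plots used matplotlib 3.10.9 (Python 3.11.15).

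The 4 genes, the related lists and the marker lists were chosen with earlier results of these data known. From each related list the 2 largest rises and the 2 largest falls in P21 minus P7 were eligible to be named, with all other cytoplasmic intermediate filament genes, the 5 genes closest to each subunit and checks of the pull-down. Camk2a, Gad2, Syt2, Vip, Lhx6, Npy, Neurod2, Crym, Lamp5, Cryab, Ap1b1 and Nt5c2 were named after their values were seen. Kif5a, Capn2 and Hspa2 were likewise given in more detail after their values were seen. A few genes are left unreported here. The alternatives changed the pseudocount (0.1 or 5 TPM), the filter (none, or a mean of 5 TPM), the scaling (median-of-ratios, quantile, or rescaling after 109 ribosomal protein, haemoglobin and mitochondrially encoded genes were left out), the trend, the groups in the fit and the block (replicate block), and left out each library in turn.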

Additional observations from a re-analysis of the deposited data

Results flagged for a closer look

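The step between P14 and P21 was smaller than the step between P7 and P14, by a test of the difference itself (limma contrast, 3 libraries per age), for 3 of the 4 genes. The second step minus the first was -0.82 for Nefl (adjusted p = 0.0207), -0.74 for Nefm (adjusted p = 0.0382) and -1.09 for Nefh (adjusted p = 0.00875). The call held in all 21 alternatives for Nefh, in 15 for Nefl and in 8 for Nefm. Both steps share the P14 libraries.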

How the results depend on the processing

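The rises of Nefl, Nefm and Nefh between P7 and P14 and between P7 and P21 passed under all 21 alternatives, as did Nefm and Nefh in P7 IP minus P7 input. For P7 IP minus P7 input, Nefl was -0.17 under median-of-ratios scaling and did not pass, and Ina was 0.032 under quantile normalisation, 0.069 after rescaling and 0.18 in a fit of only the groups compared, with 0.13 to 0.21 over libraries left out. For P14 minus P7, Ina ranged from -0.20 to -0.12 over libraries left out. For P21 minus P14, Nefm passed at 0.28 with only the groups compared and ranged from 0.23 to 0.32 over libraries left out, Ina passed at 0.16 under median-of-ratios scaling, and the small differences of Nefl (-0.0037 to 0.098) and Nefh (-0.0047 to 0.13) changed sign with the library left out. For P21 minus P7, Ina passed at -0.14 under quantile normalisation and at -0.14 after rescaling, and ranged from -0.16 to -0.082 over libraries left out. For the second step minus the first, Nefl was -0.82 with no filter, -0.65 under median-of-ratios scaling and -0.73 under quantile normalisation, with -0.88 to -0.72 over libraries left out. Nefm was -0.74 with no filter and with no trend, -0.57 under median-of-ratios scaling, -0.67 under quantile normalisation and -0.72 after rescaling, with -0.86 to -0.66 over libraries left out. Ina passed at 0.38 under median-of-ratios scaling and at 0.29 under quantile normalisation. Over the 3 ages the adjusted p of Ina was 0.0784 with no filter, 0.0846 with no trend and 0.0637 with the replicate block, and 0.0317 to 0.161 over libraries left out. The log2 ratio of Nefh to Nefm, 0.06 for P21 minus P7, was -0.072 with 1 TPM added to each gene and -0.025 to 0.13 over libraries left out, and that of Nefh to Nefl was 0.33 to 0.52. The main tests did not pair libraries by replicate number. Between ages, the deviations of same-numbered IP libraries correlated at 0.01 to 0.18, and those of differently numbered ones at -0.12 to 0.10. With the replicate block the 5 ratios that passed kept their log2 differences (0.38 for Nefm to Nefl, 0.44 for Nefh to Nefl, -1.08 for Ina to Nefl, -1.46 for Ina to Nefm and 1.52 for Nefh to Ina) at adjusted p of 0.0833 to 0.133, from fewer assignments. Genes called in P7 IP minus P7 input numbered 13259, and 8265 where a mean of 5 TPM was required, which left fewer genes to test. Unequal steps numbered 4613, and 3012 to 4698 over libraries left out. Calls in P7 IP minus P7 input split into 3541 higher and 9718 lower, 6829 and 5555 under median-of-ratios scaling, and 6256 and 6025 under quantile normalisation. In P21 minus P14 they split into 1621 and 3749, 2691 and 2258, and 2290 and 2662 under the same settings, and in the step difference into 1418 and 3195, 2266 and 1982, and 1976 and 2343. Except where a reason is given, the cause was not tested.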

Other observations

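The P7 input libraries, 1 per genotype and so without a test, had unlike levels of the 3 chains and close levels of Ina. The Cre-negative library over the Cre-positive one was 1.44 for Nefl, 1.56 for Nefm, 1.47 for Nefh and 0.971 for Ina. Over 9765 genes at 10 TPM or more in an input library the median of this ratio was 0.979, and 87 of them (0.891%) had a ratio at or above that of Nefl. Among other genes given in the text, chosen after their values were seen, Prph was at 1.56, Crym, a subcerebral layer 5 marker, at 1.56, Mbp at 1.53 and Neurod6 at 1.52. On the other side, Kif5a was at 0.843 and Rpl10a, the tagged protein's gene, at 0.489. Genotype, animal and library cannot be told apart here.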
